A study of Mus musculus with 6 samples.

Results

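The miR-30 family was measured by small-RNA sequencing in the heart of the male C57BL/6J mouse, wild type, at an age of 18 weeks. It comprised the sense entries of the count files named Mir30a, Mir30b, Mir30c-1, Mir30c-2, Mir30d or Mir30e, on both arms of each hairpin. These were 6 of the 683 hairpin genes listed and 12 of the 1102 entries. Mir30c-1 and Mir30c-2 give the same 5p sequence, which is treated here as 1 miRNA, so the family has 11 mature members, 5 from the 5p arm and 6 from the 3p arm. The 6 samples are named heart 1 to heart 6 after the number in the labels. They carry no treatment, transgene or mutation in the labels and form 1 group, so members, arms and loci were compared within hearts and no condition was contrasted. C57BL/6J is a common inbred laboratory strain. The labels call the tissue whole heart, whereas their extraction protocol describes the frozen ventricular apex. The labels do not state whether each number is a separate animal, so p-values describe the spread between these samples, which may be technical.

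A microRNA (miRNA) is cut from a hairpin precursor, and 1 strand of the cut duplex is loaded into an Argonaute protein and pairs with messenger RNAs, mainly through its seed, bases 2 to 8 counted from the 5′ end. The other strand is mostly degraded. The miR-30 family is known as abundant in heart muscle cells, where miR-30 represses connective tissue growth factor, a secreted protein of the extracellular matrix. It is also known for lower levels in hypertrophied or failing hearts.

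The 5p sequences are shown because they are the main products and differ little. The RefSeq table, on GRCm38.p6, matched 4 of the 6 genes, Mir30a, Mir30c-1, Mir30c-2 and Mir30e. Their 5p arms carry 1 seed, in capitals.
miR-30a-5p: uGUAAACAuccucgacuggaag
miR-30e-5p: uGUAAACAuccuugacuggaag
miR-30c-5p: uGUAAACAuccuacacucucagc

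Positions in the following differences count from 1 at the 5′ end, with the base of the sequence named at the start written first. From miR-30a-5p to miR-30e-5p the only difference was C13U. From miR-30a-5p to miR-30c-5p the differences were C13A, G14C, G18C, G19U and A20C over 22 compared bases. All 3 sequences thus shared their first 12 bases.

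The 3p sequences are shown because they fall into seed groups of their own, again with the seed in capitals.
miR-30a-3p: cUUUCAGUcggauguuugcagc
miR-30e-3p: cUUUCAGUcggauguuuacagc
miR-30c-1-3p: cUGGGAGAggguuguuuacucc
miR-30c-2-3p: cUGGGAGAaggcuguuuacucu

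miR-30a-3p and miR-30e-3p differed by G18A alone. miR-30c-1-3p and miR-30c-2-3p differed by G9A, U12C and C22U, so the 3p arm, unlike the 5p arm, tells the miR-30c loci apart. How reads that fit several loci were divided is not given in the sources used here, and members that differ by 1 base may have exchanged some reads. Each 5p sequence shown began with U and each 3p sequence shown with C. Over all hairpins with an arm called larger, 56.5% of the 161 larger arms with a RefSeq sequence began with U and 35.2% of the 162 smaller arms began with C.

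The genes lie in 3 genomic pairs, all on GRCm38. Mir30a is at chr1:23272269-23272339 on the plus strand, where the annotation has no overlapping gene. Mir30c-2 is at chr1:23291701-23291784 on the plus strand, in an exon of the long non-coding RNA Gm27028, and 19361 bases separate the hairpins. Mir30e is at chr4:120772606-120772697 and Mir30c-1 at chr4:120769534-120769622, both on the minus strand in introns of Nfyc, which encodes a subunit of the transcription factor NF-Y, with 2983 bases between them. Mir30d is at chr15:68341208-68341289, in exons of the non-coding genes Gm20732 and Gm37296, and Mir30b at chr15:68337415-68337510, in an exon of Gm26621, both on the minus strand with 3697 bases between them. The annotation also has Mir30f on the opposite strand at Mir30e, and no antisense entry named after Mir30a to Mir30e is listed.

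The hairpins that RefSeq gave are shown with their mature arms in capitals, the 5p arm to the left. They place the arms compared below on their precursors.
Mir30a: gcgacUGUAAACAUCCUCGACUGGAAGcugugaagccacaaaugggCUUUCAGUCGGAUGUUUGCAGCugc
Mir30c-2: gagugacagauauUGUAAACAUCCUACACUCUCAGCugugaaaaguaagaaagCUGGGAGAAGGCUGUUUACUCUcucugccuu
Mir30e: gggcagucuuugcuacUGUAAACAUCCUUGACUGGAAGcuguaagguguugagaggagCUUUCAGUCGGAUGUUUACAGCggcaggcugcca
Mir30c-1: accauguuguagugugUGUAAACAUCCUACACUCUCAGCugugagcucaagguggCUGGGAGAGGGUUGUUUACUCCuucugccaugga

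The libraries held 3966169 to 6007322 counts, so 1 read was worth 0.166 to 0.252 CPM (counts scaled to a library of 1000000) and a count of 0 would allow up to 0.499 to 0.756 CPM (3 counts). Of the 15 pairs of libraries, none agreed within sampling noise. The heart-muscle list (miR-1a-3p, miR-133a-3p, miR-208a-3p, miR-499-5p) summed to between 94127 and 106440.0 CPM, and miR-206-3p, found in skeletal muscle, had 1 read in all. Most of the heart-muscle sum was miR-133a-3p, which averaged 89004 CPM, while miR-1a-3p averaged 7587 CPM and the rest less. Endothelial, smooth-muscle, erythroid and leukocyte markers were present in every heart, so these are profiles of mixed cells, in which fewer cells of a type and less RNA per cell cannot be told apart. Hearts 4 and 5 stood apart on some lists. The 3 pancreas markers, miR-216a-5p, miR-217-5p and miR-375-3p, summed to 28.0 CPM in heart 4 and to 0.630 to 2.16 CPM elsewhere, and the cartilage list, both arms of miR-140, to 2083 CPM in heart 5 and 690 to 904 CPM elsewhere.

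The family made up 11.4% ± 0.550 (SD, n = 6) of all miRNA reads. Its share was 11.8, 11.2, 11.2, 12.3, 11.2 and 10.8% in hearts 1 to 6. Heart 4 was highest and heart 6 lowest. The 5p arms supplied 11.2% ± 0.566 of the library and the 3p arms 0.277% ± 0.0276, so that 2.44% ± 0.324 of family reads came from 3p arms (SD, n = 6). Library preparation by adapter ligation favours some RNA ends, so differences between miRNAs are differences in reads, not molecules.

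Set against 3 other multi-gene families with both arms summed, miR-30 had more reads in every heart. The let-7 family, a regulator of differentiation and growth, averaged 2.04% ± 0.145 of the library, and miR-30 exceeded it 5.62-fold (log2 ratio 2.49 ± 0.12 SD). miR-26 averaged 4.42% ± 0.585, exceeded 2.60-fold by miR-30 (1.38 ± 0.19). miR-29, a known repressor of collagen genes, averaged 0.766% ± 0.0809, exceeded 14.97-fold by miR-30 (3.90 ± 0.11). Each ratio had an adjusted p of 0.03125 over the 3 comparisons by the exact two-sided sign-flip permutation test, the smallest p that 6 hearts allow. The miR-30 total varied between hearts by a CV of 4.17% after TMM scaling (edgeR's scaling by a trimmed mean of log ratios). This was 5.70% for let-7, 5.91% for miR-29 and 9.70% for miR-26, and these CVs were not tested against each other.

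Among the 5p arms, miR-30a-5p led. It had 63193, 57095, 56632, 59319, 55715 and 53713 CPM in hearts 1 to 6, with a mean of 57611 ± 3289 (SD, n = 6), and held rank 6 of the 992 mature miRNAs in each heart. Its highest value was in heart 1 and its lowest in heart 6, and no other family member came near this range. It supplied 51.7% ± 1.86 of the 5p reads of the family.

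miR-30d-5p and miR-30e-5p stood at a common level. miR-30d-5p had 19900.0, 18681, 19568, 23975, 22478 and 20729 CPM, a mean of 20888 ± 1983 (rank 11). miR-30e-5p had 20901, 21568, 20013, 23204, 18397 and 18749 CPM, a mean of 20472 ± 1807 (rank 12). Their ranges overlapped almost fully, and miR-30d-5p was the higher of the pair in hearts 4, 5 and 6 only. The log2 ratio of miR-30d-5p over miR-30e-5p was 0.03 ± 0.17 (SD), with a ratio between 0.866 and 1.22, and the exact sign-flip permutation p was 0.719. Its sign turned without heart 5, when the log2 ratio was -0.02.

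miR-30c-5p had 8994, 9910.2, 10068, 11556, 10021 and 10036 CPM, a mean of 10098 ± 824 (rank 18), the reads of its loci summed. On plain CPM heart 4 lay apart at the high end and heart 1 was lowest. After TMM scaling heart 4 no longer lay apart, with 10706 CPM against 10494 CPM in heart 6. miR-30b-5p was the lowest 5p member, with 2537, 2351, 2429, 2885, 2535 and 2106 CPM and a mean of 2474 ± 257 (rank 39). On plain CPM heart 4 was highest for both, as it was for miR-30d-5p and miR-30e-5p. After TMM scaling it stayed highest for miR-30c-5p, miR-30b-5p and miR-30d-5p. For miR-30e-5p heart 2 was then highest, with 22630 CPM against 21496 CPM in heart 4. Of the 5p reads of the family, miR-30d-5p made up 18.7% ± 1.50, miR-30e-5p 18.3% ± 1.01, miR-30c-5p 9.06% ± 0.655 and miR-30b-5p 2.21% ± 0.136 (SD, n = 6).

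The order of the 5p arms was therefore miR-30a, then miR-30d with miR-30e, then miR-30c, then miR-30b. Of the 10 pairs, 9 kept their order in 6 of 6 hearts, each with an adjusted p of 0.0347 (exact sign-flip permutation test, Benjamini-Hochberg over 10), and the exception was miR-30d-5p with miR-30e-5p. miR-30a-5p exceeded miR-30d-5p 2.76-fold (log2 1.47 ± 0.16 SD) and miR-30e-5p 2.82-fold (1.50 ± 0.10). miR-30e-5p exceeded miR-30c-5p 2.03-fold (1.02 ± 0.13), and miR-30c-5p exceeded miR-30b-5p 4.09-fold (2.03 ± 0.14). miR-30a-5p was 23.4 times miR-30b-5p, the ends of the order.

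**Figure D1:**
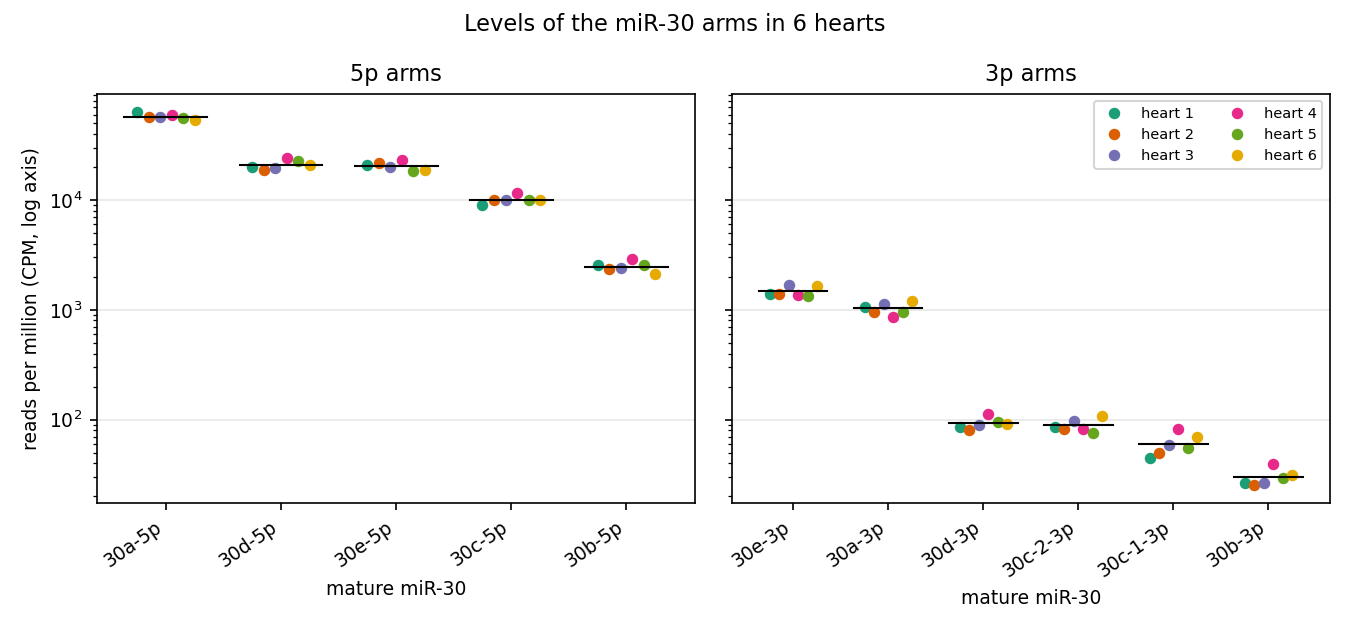
Read level in CPM (log axis) of the 5 mature 5p arms (left) and the 6 mature 3p arms (right) of the miR-30 family. Each coloured point is 1 heart and each black line the mean of 6 hearts; miR-30a-5p averaged 57611 CPM and miR-30b-3p 29.8 CPM, and the points of miR-30d-5p and miR-30e-5p overlap.

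The 3p arms had another order. miR-30e-3p led with 1379.8, 1405, 1684, 1378, 1324 and 1655 CPM, a mean of 1471 ± 156 (rank 45). miR-30a-3p had 1069, 965, 1126, 862, 956 and 1204 CPM, a mean of 1030.3 ± 125 (rank 55). Every value of miR-30e-3p lay above every value of miR-30a-3p (log2 ratio 0.52 ± 0.11 SD, 1.43-fold), while on the 5p arm miR-30e was below miR-30a in each heart.

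The other 3p arms were far lower. miR-30d-3p had 85.9, 79.7, 89.9, 113, 94.7 and 92.1 CPM (mean 92.6 ± 11.4). miR-30c-2-3p had 85.9, 82.5, 97.5, 82.4, 76.1 and 107 CPM (mean 88.6 ± 11.6). Their ranges overlapped, with miR-30d-3p the higher in 2 hearts, and neither was shown to exceed the other (log2 ratio of miR-30d-3p over miR-30c-2-3p 0.06 ± 0.26 SD, exact sign-flip permutation p = 0.625). That sign also turned without heart 4, when the log2 ratio was -0.01.

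miR-30c-1-3p had 45.2, 49.5, 58.2, 82.7, 54.8 and 69.3 CPM (mean 59.9 ± 13.9), highest in heart 4. miR-30b-3p had 26.7, 25.6, 26.3, 39.8, 29.3 and 31.2 CPM (mean 29.8 ± 5.35), again highest in heart 4. miR-30c-2-3p exceeded miR-30c-1-3p in 5 of 6 hearts, by 1.50-fold on average (log2 0.59 ± 0.32 SD, exact sign-flip permutation p = 0.0625, adjusted 0.0670), and heart 4 was the exception, with 327 reads of miR-30c-2-3p and 328 of miR-30c-1-3p. Of the 15 pairs of 3p arms, 13 passed with an adjusted p of 0.0361 in the exact permutation test. Of the 3p reads of the family, 53.0% ± 1.28 were miR-30e-3p, 37.1% ± 2.002 miR-30a-3p, 3.37% ± 0.598 miR-30d-3p, 3.19% ± 0.129 miR-30c-2-3p, 2.18% ± 0.552 miR-30c-1-3p and 1.09% ± 0.249 miR-30b-3p (SD, n = 6).

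Within each hairpin the 5p arm held most reads, to very different degrees. Reads of 5p per read of 3p came to 232, 234, 218, 212, 237 and 225 at miR-30d in hearts 1 to 6. At miR-30e they came to 15.1, 15.3, 11.9, 16.8, 13.9 and 11.3. These 2 hairpins, whose 5p arms had a common level, thus stood at the ends of the family, and their ranges were far apart. The ratio ran from 67.4 to 95.1 at miR-30b, from 56.8 to 76.6 at miR-30c with its loci summed, and from 44.6 to 68.8 at miR-30a. These 3 ranges overlapped with each other, yet within every heart the ratio was highest at miR-30b and lowest at miR-30a. The gap was small in heart 4, at 72.4 for miR-30b, 70.0 for miR-30c and 68.8 for miR-30a. The order of these hairpins was not tested.

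The fitted ratios of 5p over 3p were 226-fold for miR-30d (log2 7.82, SE 0.12), 83.3-fold for miR-30b (6.38, SE 0.12), 68.2-fold for miR-30c (6.09, SE 0.12), 56.2-fold for miR-30a (5.81, SE 0.11) and 13.9-fold for miR-30e (3.80, SE 0.10). The quasi-likelihood test of edgeR, blocked by library, called a larger 5p arm for 5 of 5 family hairpins, the largest adjusted p being 3.40e-197. Of all 213 hairpins tested, 103 were called with a larger 5p arm (48.4%) and 87 with a larger 3p arm. A call took a ratio of 2-fold or more beside an adjusted p below 0.05. The SE rests on a spread pooled over hairpins. The SD of the log2 ratio over hearts was 0.06 for miR-30d and between 0.16 and 0.22 for the others, and the exact sign-flip permutation test gave each an adjusted p of 0.03125 over the 5, the smallest possible. The median ratio of the 103 hairpins was 38.8-fold, and miR-30d, miR-30b, miR-30c, miR-30a and miR-30e took ranks 27, 37, 41, 44 and 74 among them.

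Expressed as a share of the hairpin's reads, the 3p arm took 6.75% ± 0.989 at miR-30e, 1.76% ± 0.266 at miR-30a, 1.45% ± 0.161 at miR-30c, 1.19% ± 0.176 at miR-30b and 0.441% ± 0.0197 at miR-30d (SD, n = 6). The lowest share of miR-30d was 0.420% in heart 5 (95% Wilson interval 0.387 to 0.455%), and the lowest of miR-30e was 5.61% in heart 4 (5.46 to 5.75%). Such intervals cover counting error within 1 library only, not the spread between hearts, and the reads carried no molecular identifiers. For miR-30e, miR-30a, miR-30c and miR-30b heart 6 had the highest 3p share, and for miR-30d heart 4.

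**Figure D2:**
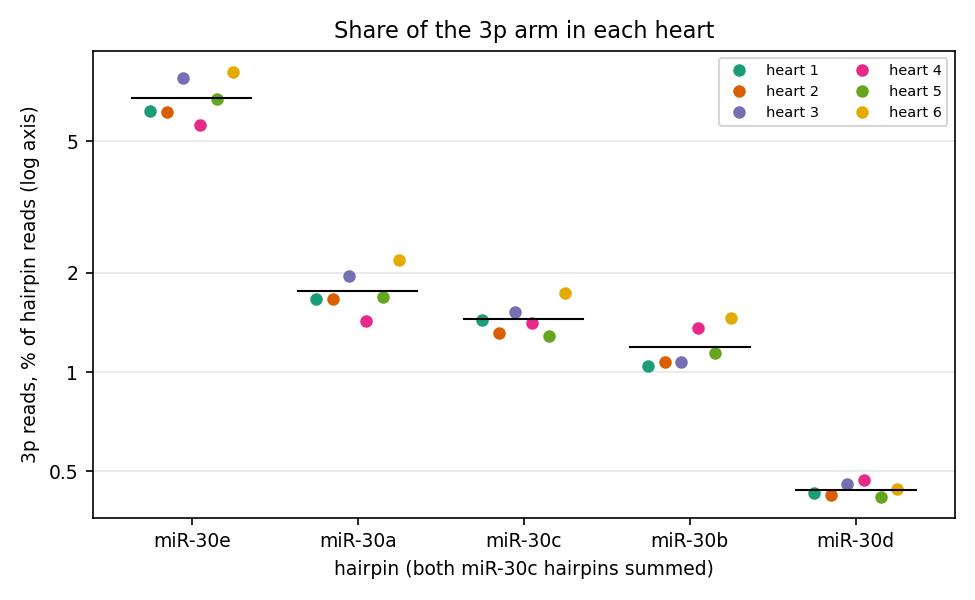
Reads of the 3p arm as a percent of all reads of the hairpin (log axis) for the 5 miR-30 hairpins, with the miR-30c loci summed. Each point is 1 heart and each line the mean of 6 hearts; the shares run from 0.441% at miR-30d to 6.75% at miR-30e.

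The miR-30c loci were divided differently on the arms. The files placed 10.1, 10.1, 9.78, 9.93, 10.2 and 9.48% of the miR-30c-5p reads of hearts 1 to 6 at Mir30c-1, a mean of 9.92% ± 0.255, and the rest at Mir30c-2. The 3p arms, whose sequences differ, placed 34.5, 37.5, 37.4, 50.1, 41.9 and 39.2% at Mir30c-1, a mean of 40.1% ± 5.47 (SD, n = 6). The 5p range lay wholly below the 3p range. Since the 5p sequences are identical, the 5p division cannot be read as output of the loci, and the rule by which the reads were divided is not given in the sources used here. As placed by the files, the 3p share was 5.61% ± 0.938 at Mir30c-1 and 0.971% ± 0.147 at Mir30c-2. With Mir30c-1 alone taken as miR-30c, the log2 ratio of miR-30c-5p over miR-30b-5p became -1.30.

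**Figure D3:**
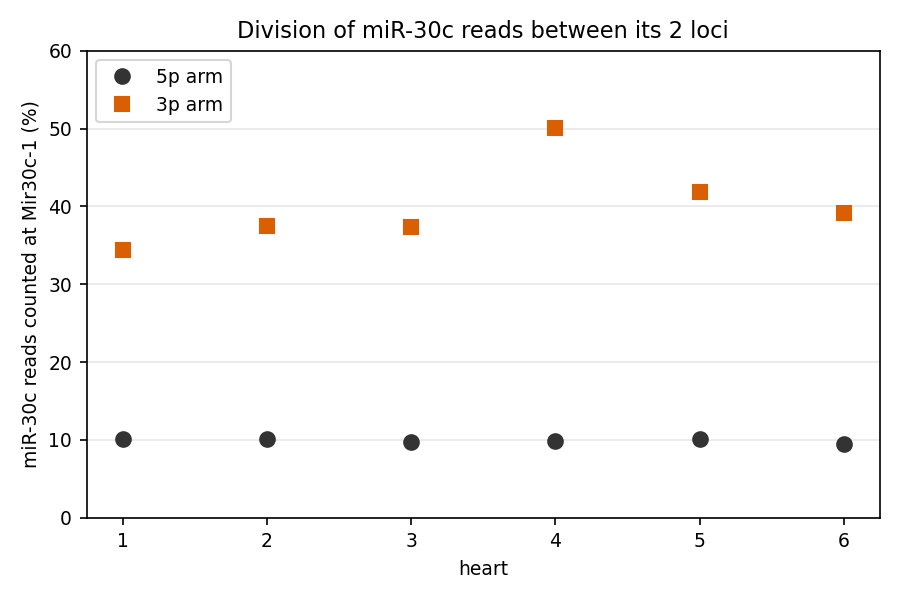
Percent of miR-30c reads that the files place at Mir30c-1, by heart, for the 5p arm (circles) and the 3p arm (squares); the remainder lies at Mir30c-2. The 5p points stay between 9.48 and 10.2%, and the 3p points lie between 34.5 and 50.1%, highest in heart 4.

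The genomic pairs were uneven on both arms. On chromosome 1, Mir30a had 6.38 ± 0.747 times the 5p reads of Mir30c-2 and 11.7 ± 0.789 times its 3p reads. On chromosome 4, Mir30e had 20.5 ± 1.71 times the 5p reads of Mir30c-1 and 25.4 ± 5.06 times its 3p reads. On chromosome 15, Mir30d had 8.48 ± 0.762 times the 5p reads of Mir30b and 3.13 ± 0.210 times its 3p reads (SD, n = 6 throughout). The chromosome 15 pair was thus the more uneven on its 5p arm, in every heart, with 5p ratios of 7.85 to 9.84 and 3p ratios of 2.84 to 3.42. The 5p ratios on chromosomes 1 and 4 carry the division of miR-30c-5p described above. By that division, chromosome 1 held 59.3% ± 1.34 of family reads, chromosome 15 20.5% ± 1.53 and chromosome 4 20.1% ± 0.992.

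Each of the 11 members varied between hearts by more than counting allows (chi-square test against library totals, adjusted p under 0.05), as did 72.0% of the 353 miRNAs that averaged 10 reads or more and 90.0% of the 211 that averaged 100 or more. The background at this depth is thus near the family's own share. miR-30b-3p lost its call without heart 4, at an adjusted p of 0.429, and so did miR-30d-3p, at 0.114.

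The spread between hearts was smaller for most 5p arms than for most 3p arms, a difference that was not tested. The CV of TMM-scaled CPM was 5.54% for miR-30c-5p, 5.68% for miR-30d-5p, 6.64% for miR-30b-5p, 7.07% for miR-30a-5p and 8.49% for miR-30e-5p. It was 8.05% for miR-30d-3p, 13.1% for miR-30e-3p, 14.2% for miR-30b-3p, 15.6% for miR-30a-3p, 16.0% for miR-30c-2-3p and 20.3% for miR-30c-1-3p. The median was 6.64% over the 5p members, 14.9% over the 3p members and 12.2% over those 211 miRNAs. Counted from the least variable of these, miR-30c-5p had rank 10, miR-30d-5p 11, miR-30b-5p 22, miR-30a-5p 28 and miR-30e-5p 50, while miR-30c-1-3p had rank 173. Counting alone accounts for a CV of 0.188% at miR-30a-5p and of 8.29% at miR-30b-3p, so depth differs widely between these members. Without heart 1 the CV of miR-30a-5p was 4.13%, and without heart 4 that of miR-30b-3p was 9.19%.

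The relation between hearts was described on log2 TMM-scaled CPM for the genomic pairs on each arm and for the arms of each hairpin, 11 correlations over 6 hearts. By the exact permutation test 0 of them reached an adjusted p of 0.05 and 3 an unadjusted p of 0.05. These 3 were the 3p arms on chromosome 1, the 3p arms on chromosome 15 and the arms of miR-30d.

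On chromosome 1, TMM-scaled miR-30a-3p was 1097, 1013, 1119, 799, 923 and 1258 CPM and miR-30c-2-3p was 88.1, 86.6, 96.8, 76.4, 73.4 and 112 CPM. Both were highest in heart 6, and hearts 4 and 5 were lowest for both. Pearson's r was 0.91 (exact permutation p = 0.0167, adjusted 0.0917) and Spearman's rho 0.94 (exact permutation p = 0.0167, adjusted 0.183). Leaving out hearts 4 and 6, which lie farthest from the median, gave r of 0.95.

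On chromosome 15, scaled miR-30d-3p was 88.1, 83.7, 89.3, 105, 91.5 and 96.3 CPM and miR-30b-3p was 27.4, 26.8, 26.1, 36.9, 28.3 and 32.7 CPM. Both were highest in heart 4 and next in heart 6. Pearson's r was 0.94 (exact permutation p = 0.0111, adjusted 0.0917), Spearman's rho 0.83 (exact permutation p = 0.0583, adjusted 0.321), and r without hearts 2 and 4 was 0.94. Without heart 4 alone r was 0.82, and neither arm was then called as varying beyond counting, as given above.

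On chromosome 4, scaled miR-30e-3p was 1416, 1475, 1672, 1276, 1279 and 1730.0 CPM and miR-30c-1-3p was 46.3, 52.0, 57.8, 76.6, 52.9 and 72.4 CPM. Heart 4 was highest for miR-30c-1-3p and lowest for miR-30e-3p. Pearson's r was 0.14 (exact permutation p = 0.790, adjusted 0.973) and Spearman's rho -0.03 (exact permutation p = 1.0), and r was 0.75 without heart 4 and -0.63 without hearts 3 and 6 on the scaling of all 6 hearts, so its value turned on which hearts entered.

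The 5p arms of the genomic pairs gave r of -0.52 on chromosome 1, 0.04 on chromosome 15 and 0.34 on chromosome 4, with exact permutation p-values of 0.287, 0.933 and 0.515. The pairs on chromosomes 1 and 4 rest on the division of miR-30c-5p. Between the arms of a hairpin, r was 0.83 for miR-30d (exact permutation p = 0.0292, adjusted 0.107; rho 0.77, p = 0.103; r 0.84 without hearts 2 and 3). It was 0.62 for miR-30c, 0.35 for miR-30a, 0.12 for miR-30b and 0.01 for miR-30e, with exact permutation p-values between 0.197 and 0.992.

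**Figure D4:**
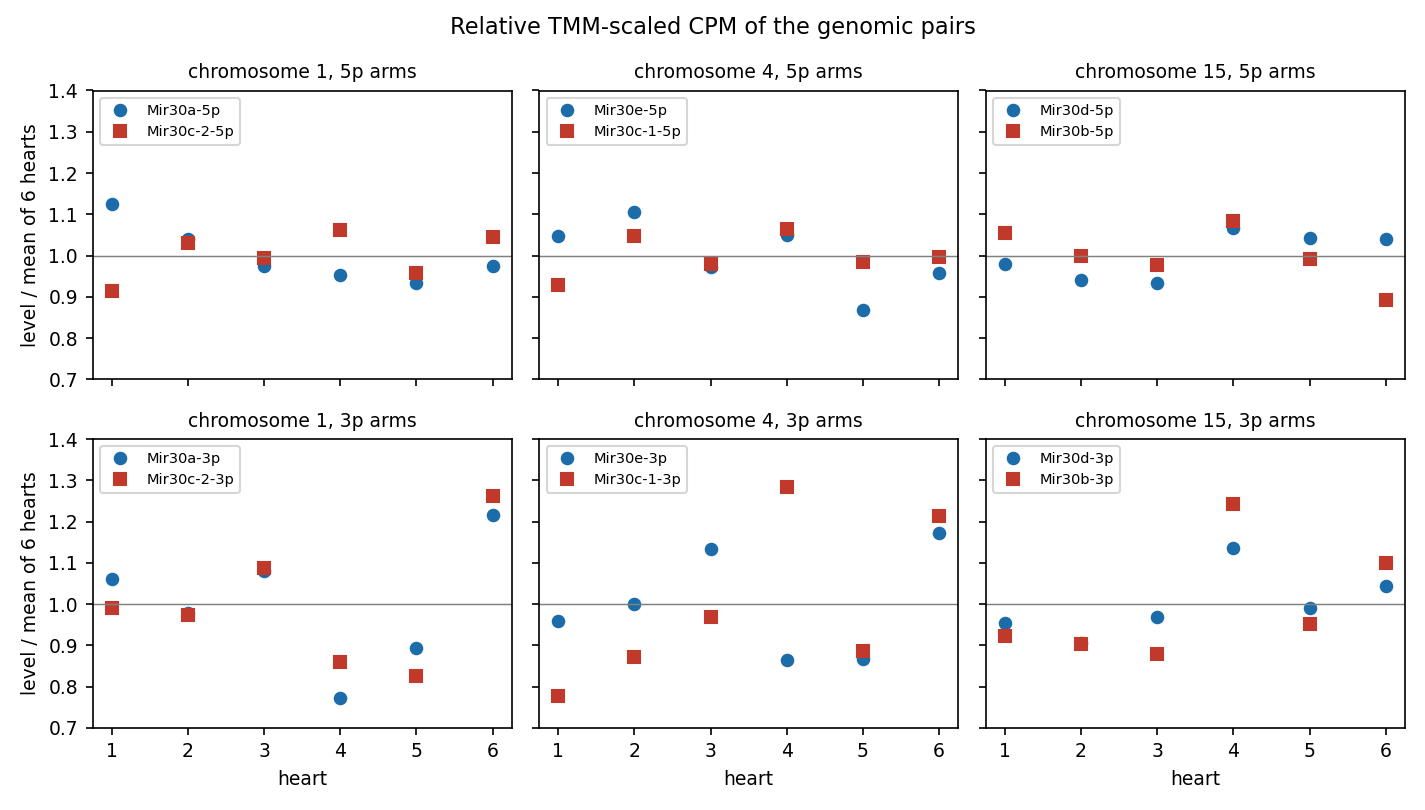
TMM-scaled CPM of each member of the 3 genomic pairs, divided by its mean over 6 hearts, for 5p arms (top row) and 3p arms (bottom row); circles and squares are the 2 genes of a pair. The 3p points of chromosomes 1 and 15 lie close together within hearts (r 0.91 and 0.94), and those of chromosome 4 part in heart 4.

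After these values were seen, the 12 other pairs of 3p arms were added, 23 correlations in all, of which 0 reached an adjusted p of 0.05 and 7 an unadjusted exact permutation p of 0.05. The largest was that of miR-30c-2-3p with miR-30e-3p, on different chromosomes, at r 0.96 (exact permutation p = 0.00556, adjusted 0.104; rho 0.89; r 0.96 without hearts 5 and 6). miR-30a-3p with miR-30e-3p, which differ by 1 base, had r 0.89 (exact permutation p = 0.0181, adjusted 0.104; rho 0.94; r 0.81 without hearts 4 and 6). miR-30c-1-3p followed the chromosome 15 arms, with r 0.86 to miR-30d-3p and 0.87 to miR-30b-3p, which became 0.20 and -0.49 without hearts 4 and 6, so both rest on those hearts. Of the 15 pairs of 3p arms, 8 had a positive and 7 a negative r over 6 hearts, and 15 had a positive r, from 0.34 to 0.98, once heart 4 was left out. That pattern changed when heart 6 was left out too. Without hearts 4 and 6, miR-30b-3p had r of -0.79 to miR-30a-3p, -0.94 to miR-30c-2-3p and -0.99 to miR-30e-3p. In the few hearts left, scaled miR-30b-3p ran only from 26.1 to 28.3 CPM. Counting alone accounts for a CV of 8.29% at this member, so these negative r values cannot be told from counting noise. Other pairs stayed positive, as miR-30a-3p with miR-30e-3p did. The part of the marker lists that set heart 4 apart in these relations was not tested.

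**Figure D5:**
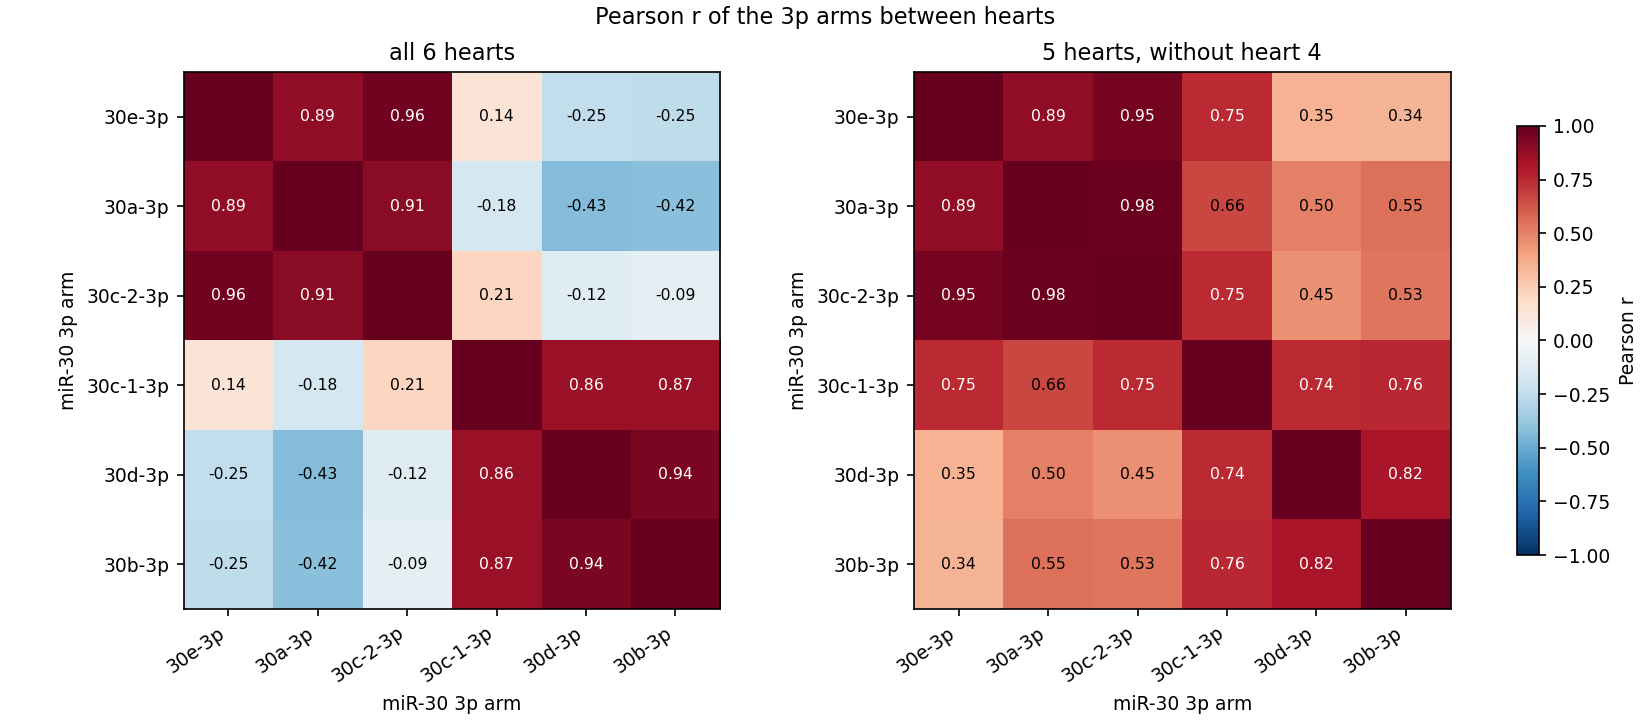
Pearson r of log2 TMM-scaled CPM between the 6 miR-30 3p arms, over all 6 hearts (left) and over 5 hearts without heart 4 (right), with blue negative and red positive. With all hearts 7 of the 15 pairs are negative, and without heart 4 all 15 are positive, from 0.34 to 0.98. Without hearts 4 and 6, not drawn here, some were negative, such as miR-30b-3p with miR-30e-3p (-0.99). Scaled miR-30b-3p then ran only from 26.1 to 28.3 CPM, a range within counting noise.

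The summed 5p arms of the family averaged 111510 ± 4765 CPM (SD, n = 6) after TMM scaling, from 105381 CPM in heart 5 to 118524 CPM in heart 1. Among 200 miRNAs outside the family that averaged 100 reads or more, those most like this sum over the 6 hearts were miR-450b-5p (r 0.95), let-7a-3p (0.90), miR-135a-5p (0.88), miR-450a-5p (0.87) and miR-21a-3p (0.86). The least alike were miR-204-5p (-0.90), miR-338-3p (-0.84) and miR-125b-5p (-0.83). These are the extremes of 200 correlations over 6 hearts and were not tested. They compare the pattern only, not its size, as miR-21a-3p varied between hearts by a CV of 46.8%. These names depend on the scaling. With DESeq2 size factors 4 of the 5 highest and 1 of the 3 lowest were shared, and with plain CPM 1 and 0. With the hairpins at the miR-486 locus counted apart, which changed the TMM factors, 2 and 1 were shared.

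Outside the family, 1 listed miRNA carries the miR-30 5p seed among those with a RefSeq sequence, which some listed miRNAs lack. miR-384-5p, from the X chromosome, has the sequence shown here with its seed in capitals.
miR-384-5p: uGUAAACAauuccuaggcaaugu

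It shared its first 8 bases with miR-30a-5p. It had 0, 1, 3, 4, 6 and 6 reads in hearts 1 to 6, 20 in all, or 0.677 CPM over the pooled libraries (95% Poisson interval 0.414 to 1.05). Against this, miR-30a-5p, miR-30c-5p and miR-30e-5p had 1694738, 296863 and 598830 reads. Among the RefSeq sequences the seed UUUCAGU belonged to miR-30a-3p and miR-30e-3p alone. Those sequences held neither Mir30b nor Mir30d, so the seeds of these family members were not looked up. The seed UGGGAGA of the miR-30c 3p arms was shared with miR-6958-5p, which has no entry in the files used here.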

How the data were processed

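Whole-number read counts per mature arm and locus, not normalized, were used as the authors deposited them, 1 file per heart. Per the submitters' processing notes the build was GRCm38, and edgeR and DESeq were named without a role. Aligner, counter and the handling of reads fitting several loci were not given in the sources used here. Of the 76 antisense entries, 37 were assigned to a hairpin annotated on the other strand and 39 were left out. Entries of 1 mature name were summed, which gave 992 miRNAs. The hairpins on both strands at the miR-486 locus were summed too, a choice made after values were seen, which moved TMM-scaled levels by at most 1.15% in a heart and changed the list of miRNAs alike in pattern. The arm test was edgeR 4.0.16 quasi-likelihood on hairpins of at least 10 mean reads, with Benjamini-Hochberg adjustment. Ratios between members used exact sign-flip permutation tests, and correlations used all 720 orders of 6 hearts and a prior count of 1. DESeq2 1.42.0 served as an alternative. Named miRNAs were the family, miRNAs sharing its seeds, and the 5 most and 3 least alike in pattern. The members and lists were chosen with earlier results of these data known. Tests were checked on simulated data. Sequences came from RefSeq and genes from a GRCm38 annotation.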

Additional observations from a re-analysis of the deposited data

Results flagged for a closer look

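Of 44 member values examined per heart, 3 had a heart far from the other 5, and chance alone is expected to mark about 1 in 20. miR-30c-5p made up 7.79% of the 5p family reads in heart 1, against 9.04 to 9.56% in the others. Mir30a had 7.81 times the 5p reads of Mir30c-2 in heart 1, against 5.70 to 6.41 times in the others, a value that shares its reads with the preceding one. In heart 1 the erythroid list summed to 5691 CPM and the leukocyte list to 2688 CPM, the highest of the 6 hearts for both, and their part in these values was not tested. miR-30c-1-3p made up 3.23% of the 3p family reads in heart 4, against 1.68 to 2.19% in the others. Heart 4 was the highest or lowest heart on most marker lists, at times by little, but not on the fibroblast, leukocyte and neural lists. It was highest for the pancreas (28.0 CPM, next heart 2.16 CPM), heart-muscle (106440 CPM, next 101704 CPM) and endothelial (97257 CPM, next 94657 CPM) lists. The same held for the liver marker miR-122-5p (74.4 CPM, next 70.0 CPM). It was lowest for the smooth-muscle (65604 CPM, next 83293 CPM), erythroid (2176 CPM, next 2396 CPM) and cartilage (690 CPM, next 714 CPM) lists. The part of these lists was not tested.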

How the results depend on the processing

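Of 686 values recomputed under the alternatives, 653 kept their direction and their side of the threshold or moved by less than their tolerance. The family share was 13.3% of a library total without miR-486, against 11.4%. The count of correlations past an adjusted p of 0.05 was 2 on plain CPM, the 3p arms on chromosome 15 (r 0.94) and the arms of miR-30d (r 0.94), against 0 after TMM scaling. The sign turned in these cases, whose cause was not tested. With Mir30c-1 alone the log2 ratio of miR-30c-5p over miR-30b-5p was -1.30. Without hearts 4 and 5 miR-30d-5p over miR-30e-5p was -0.041 and miR-30d-3p over miR-30c-2-3p -0.10. On plain CPM r was -0.33 between the arms of miR-30a and -0.31 between those of miR-30e, and -0.049 for miR-30e with DESeq2 size factors. With the miR-486 hairpins counted apart r of the chromosome 15 5p arms was -0.12. Leaving out 1 heart at a time gave log2 ratios from -0.024 to 0.076 for miR-30d-5p over miR-30e-5p and from -0.015 to 0.12 for miR-30d-3p over miR-30c-2-3p. With TMM factors fitted anew on the 5 hearts left, it gave r from -0.86 to 0.38 for the chromosome 1 5p arms, from -0.71 to 0.54 for the chromosome 15 5p arms, from -0.16 to 0.77 for the chromosome 4 3p arms, from -0.89 to 0.79 for the arms of miR-30b and from -0.77 to 0.33 for those of miR-30e. With 5 hearts the exact sign-flip permutation test cannot go below 0.0625, so these runs say nothing of the calls between members. miR-30b-3p and miR-30d-3p had adjusted p-values of 0.356 and 0.222 for variation beyond counting without hearts 4 and 5. The counts of hairpins with a larger 5p arm ran from 80 of 153 tested (52.3%) at a minimum of 100 reads to 115 of 330 (34.8%) with no minimum.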
